A study of Mus musculus with 42 samples.

Results

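Gsn, Lgals1, Sulf1 and Tubb6 were followed through all 42 RNA-seq libraries of a mouse study of bisphenol S (BPS), 4 genes of the 22186 in the deposited table. They were chosen by their measured values, the log2 differences after 1 μM BPS that passed the test in each of induced pluripotent stem cells (iPSCs), Sertoli cells, granulosa cells and primordial germ cell-like cells (PGCLCs). Of 13210 genes tested in all 4 of these comparisons, 55 passed the threshold in 3 of them and 4 genes passed in all of them, which are exactly Gsn, Lgals1, Sulf1 and Tubb6. The changes in those 4 comparisons are therefore given below as a description, with no test.

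BPS is a substitute for bisphenol A that can bind estrogen receptors, and the study asked how cell types differ in their response to it. Each of the 14 groups had 3 libraries. In the dose series, male iPSCs received the ethanol vehicle or 1, 50 or 100 μM BPS. Sertoli cells, granulosa cells and PGCLCs (here called directly exposed PGCLCs) received 1 μM BPS or the vehicle. In a second experiment iPSCs again received 1 μM BPS or the vehicle, and PGCLCs were then derived from each (derived PGCLCs). The exposure lasted 24 h and was followed by 24 h without BPS, or by 8 h for directly exposed PGCLCs. All iPSCs were 1 line, reprogrammed from the fibroblasts of a single male fetus that carried the tetO-4F2A cassette, which doxycycline switches on, and the PGCLCs were induced from iPSCs and sorted for FUT4 and ITGB3. Sertoli and granulosa cells were primary cultures from pooled littermates at postnatal day 20, divided over flasks. The replicates of a group are thus flasks or batches of 1 cell source, and p-values measure only the spread between them.

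The 4 genes belong to different systems of the cell. Gsn encodes gelsolin, a calcium-regulated protein that severs actin filaments and caps their ends, and it is made in a cytoplasmic and a secreted form. Tubb6 encodes a beta tubulin, a building block of microtubules. Lgals1 encodes galectin-1, a lectin that binds beta-galactoside sugars inside and outside the cell and links surface glycoproteins. Sulf1 encodes an extracellular sulfatase that removes 6-O-sulfate groups from heparan sulfate, the sugar chain that holds growth factors at the cell surface.

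In the GRCm38 build, Gsn lies on the plus strand of chromosome 2 (35256359 to 35307902), with 7 annotated transcripts, and it overlaps the provisional gene model Gm43128 on the same strand, so reads of this model could not be told apart from its own. Lgals1 is on chromosome 15 (78926725 to 78930465) and Sulf1 on chromosome 1 (12692197 to 12861192), both on the plus strand and with no overlapping gene. The values are sums over the exons of each gene and do not separate transcripts or start sites.

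Promoters are shown for Gsn, the 1 of the 4 genes for which the RefSeq promoter table used here has entries, so those of Lgals1, Sulf1 and Tubb6 were not analysed here. RefSeq (GRCm38.p6) gives it 3 start sites, each shown from 250 bases before to 50 bases after the start on the plus strand, with the letters GCGTG and GGGCGG, on either strand, in capitals.
Gsn start 1, chr2:35256109-35256408: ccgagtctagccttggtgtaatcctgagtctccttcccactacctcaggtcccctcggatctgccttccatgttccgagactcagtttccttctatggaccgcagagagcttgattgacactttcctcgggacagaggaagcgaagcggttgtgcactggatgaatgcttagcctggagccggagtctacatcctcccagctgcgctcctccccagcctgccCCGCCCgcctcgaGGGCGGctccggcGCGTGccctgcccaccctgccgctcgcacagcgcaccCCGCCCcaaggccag
Gsn start 2, chr2:35266494-35266793: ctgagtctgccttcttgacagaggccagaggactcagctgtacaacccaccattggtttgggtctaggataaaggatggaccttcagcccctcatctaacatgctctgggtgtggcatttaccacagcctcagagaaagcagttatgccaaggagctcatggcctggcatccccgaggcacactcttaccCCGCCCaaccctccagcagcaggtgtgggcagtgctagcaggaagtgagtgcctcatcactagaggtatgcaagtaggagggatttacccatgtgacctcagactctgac
Gsn start 3, chr2:35282130-35282429: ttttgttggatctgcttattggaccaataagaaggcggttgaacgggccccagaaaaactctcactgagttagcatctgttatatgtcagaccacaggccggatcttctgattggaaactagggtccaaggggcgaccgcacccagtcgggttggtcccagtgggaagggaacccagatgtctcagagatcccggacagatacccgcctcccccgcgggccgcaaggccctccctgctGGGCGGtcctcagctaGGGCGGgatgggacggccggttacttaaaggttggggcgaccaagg
GCGTG, the core letters to which the aryl hydrocarbon receptor binds, occurred 1 time at start 1 and at neither other start. GGGCGG, the GC box, occurred 3 times at start 1, 1 time at start 2 and 2 times at start 3. GGTCA, the estrogen receptor half-site, occurred 1 time at start 2 only. The letters TGANTCA (AP-1) and GGAATG (TEAD) and the CArG box of serum response factor were in none of the 3 windows. Of 32851 mouse promoters of the same length, 32.39% held GCGTG, 35.66% GGGCGG, 40.48% GGTCA, 7.81% TGANTCA, 14.66% GGAATG and 1.63% a CArG box, so the letters found at Gsn are common ones. Start 1 had a GC content of 63.7% and 20 CG pairs, start 3 had 58.7% and 16, and start 2 had 54.7% and 2. The 3 motifs found are matches of letters and no measure of binding.

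The libraries held 26693847 to 44524376 reads. Behind the values stood 108 to 7147 reads for Gsn, 1460 to 103947 for Lgals1, 513 to 6234 for Sulf1 and 943 to 14975 for Tubb6. Levels are given as CPM, read counts scaled to a common library size by the authors, and differences on the log2 scale, BPS minus vehicle unless stated. The labelled cell types could be read from their markers. In vehicle, the pluripotency gene Pou5f1 averaged 747 CPM in iPSCs and 520.2 CPM in PGCLCs, and the germ cell regulator Prdm1 averaged 24.5 CPM in iPSCs and 50.7 CPM in PGCLCs. Of the other germ cell markers, Prdm14 (-0.07) and Dppa3 (-0.86, log2 difference, PGCLCs minus iPSCs) did not pass, and Prdm14 was lower in derived PGCLCs than in their iPSCs (-0.63). Cldn11 averaged 1508 CPM in Sertoli cells and Foxl2 140.3 CPM in granulosa cells, but the follicle-stimulating hormone receptor gene Fshr was near 0 in granulosa cells (0.451 CPM) and Amh, a Sertoli cell hormone, was at 7.49 CPM in Sertoli cells. Both primary cultures also carried markers of stroma, with a sum over 7 genes of 1198 to 1317 CPM in vehicle Sertoli libraries and 4648 to 4989 CPM in vehicle granulosa libraries. PGCLCs carried mesoderm markers, with Hand1 at 309 CPM and T at 137 CPM in vehicle, against 0.0241 and 37.5 CPM in iPSCs. Mixl1 was higher in PGCLCs too, while Kdr did not pass. In such bulk samples, fewer cells of a type and less RNA per cell cannot be told apart.

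Without BPS, Gsn, Lgals1 and Tubb6 shared an order of cell types that Sulf1 did not follow. The choice of the genes did not use levels between cell types, though the vehicle libraries are the same ones, and the cell types were grown and collected separately, so that cell type and culture cannot be told apart. Gsn averaged 168 ± 7.75 CPM in Sertoli cells, 164 ± 5.59 CPM in granulosa cells, 28.0 ± 1.59 CPM in PGCLCs and 5.66 ± 1.14 CPM in iPSCs (SD, n = 3 each). Sertoli and granulosa cells overlapped, with a log2 difference of 0.04 (Sertoli minus granulosa, 95% interval -0.18 to 0.25, limma adjusted p = 0.760). Each of the other 5 pairs of cell types differed.

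Lgals1 had the widest range. It averaged 3188 ± 47.2 CPM in Sertoli cells, 1154 ± 20.9 CPM in granulosa cells, 142 ± 4.54 CPM in PGCLCs and 55.2 ± 3.73 CPM in iPSCs. Sertoli cells thus stood 57.8-fold above iPSCs (log2 difference 5.85 ± 0.04, SE). Tubb6, whose gene (chromosome 18, 67390731 to 67402749, plus strand) overlaps no other, averaged 460.3 ± 18.6 CPM in Sertoli cells, 189.9 ± 2.29 CPM in granulosa cells, 153 ± 1.24 CPM in PGCLCs and 35.5 ± 1.89 CPM in iPSCs. Its nearest neighbours, granulosa cells and PGCLCs, still differed (0.31 ± 0.04, granulosa minus PGCLC).

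Sulf1 was lowest in granulosa cells, where the other 3 genes were high. It averaged 217 ± 3.67 CPM in Sertoli cells, 107 ± 1.53 CPM in iPSCs, 87.7 ± 0.603 CPM in PGCLCs and 18.8 ± 1.09 CPM in granulosa cells. The smallest gap, PGCLCs minus iPSCs, was -0.29 ± 0.04 and passed the test. All 4 genes passed in 5 of the 6 pairs and 3 did in Sertoli minus granulosa cells, but so did most genes: 71.7% in Sertoli minus granulosa, 88.4% in Sertoli minus PGCLC, 89.9% in Sertoli minus iPSC, 85.7% in granulosa minus PGCLC, 89% in granulosa minus iPSC and 76.2% in PGCLC minus iPSC. Divided by the merged exon length, Lgals1 was the most abundant of the 4 genes in each of these vehicle groups (61.1 CPM per kb in iPSCs, 3530.2 in Sertoli cells) and Tubb6 the second. Gsn was the lowest in iPSCs (1.79 CPM per kb). Sulf1 was the lowest in granulosa cells (1.66 CPM per kb), PGCLCs (7.76) and Sertoli cells (19.2).

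**Figure D1:**
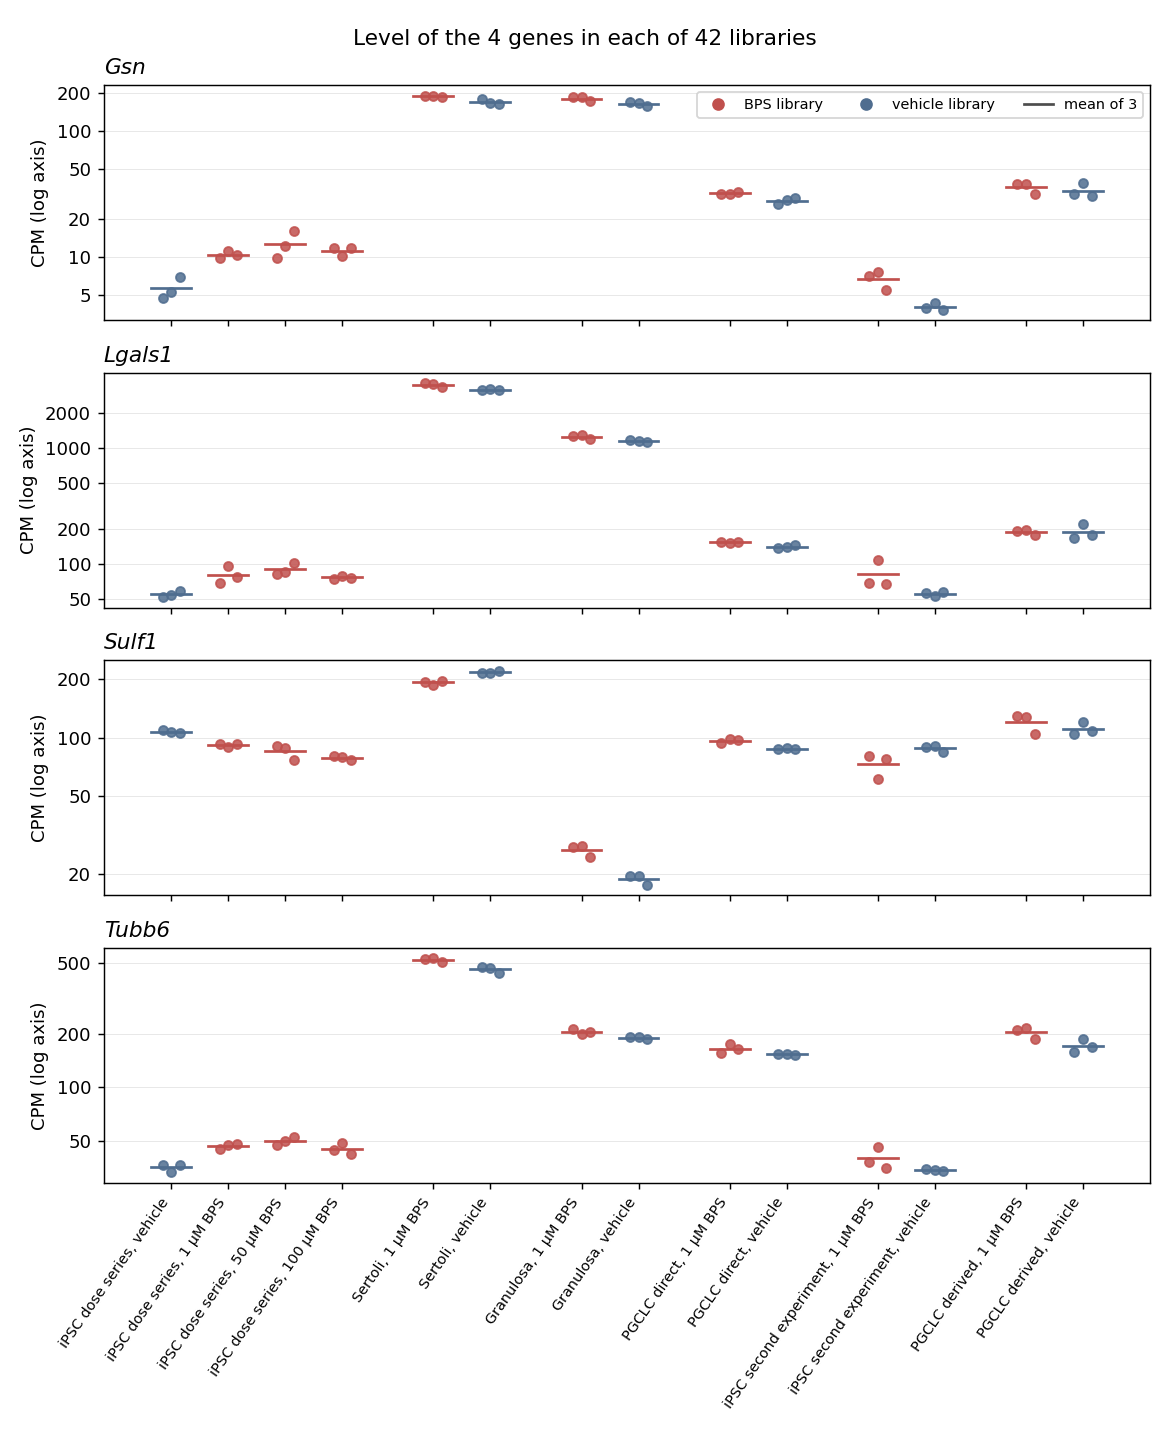
CPM (log axis) of each gene in each of the 42 libraries, 1 point per library and a line at the mean of each group of 3, BPS in red and vehicle in blue. Gsn, Lgals1 and Tubb6 are high in Sertoli and granulosa cells and low in iPSCs, while Sulf1 is lowest in granulosa cells (18.8 CPM in vehicle).

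Gsn was higher after 1 μM BPS in all 4 cell types, by far the most in iPSCs. In the dose series it had 9.85, 11.1 and 10.4 CPM in iPSCs with 1 μM BPS, against 4.75, 5.30 and 6.94 CPM in iPSCs with vehicle, a log2 difference of 0.90 ± 0.14 (SE). In Sertoli cells it had 189, 188 and 183 CPM with BPS, against 176, 166 and 161 CPM with vehicle, a difference of 0.16 ± 0.04. The groups did not overlap in either cell type, and all 3 exposed iPSC libraries lay well above the highest vehicle library. In granulosa cells Gsn had 183, 183 and 170.2 CPM with BPS, against 167, 166 and 157 CPM with vehicle (0.13 ± 0.03). In directly exposed PGCLCs it had 31.5, 31.7 and 32.6 CPM with BPS, against 26.3, 28.5 and 29.3 CPM with vehicle (0.19 ± 0.05). The iPSC change amounted to a ratio of 1.86, while the other cell types had ratios of 1.09 to 1.14.

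Lgals1 followed the same pattern with a smaller change in iPSCs. It had 68.8, 95.7 and 77.1 CPM in iPSCs with 1 μM BPS, against 52.1, 54.1 and 59.3 CPM with vehicle (0.53 ± 0.09). In Sertoli cells it had 3627, 3558 and 3344 CPM with BPS, against 3179.5, 3239 and 3145 CPM with vehicle (0.14 ± 0.04). Replicate 2 of the exposed iPSCs and replicate 1 of the exposed Sertoli cells were the highest of their groups. Granulosa cells had 1282, 1289 and 1211 CPM with BPS, against 1174, 1155 and 1132 CPM with vehicle (0.13 ± 0.03). Directly exposed PGCLCs had 157, 154 and 156 CPM with BPS, against 137, 141 and 146 CPM with vehicle (0.13 ± 0.03). Outside iPSCs the differences of Lgals1 were nearly equal, and no exposed group overlapped its vehicle group.

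Tubb6 was higher in all 4 as well. It had 45.0, 47.5 and 47.8 CPM in iPSCs with 1 μM BPS, against 36.6, 33.3 and 36.5 CPM with vehicle (0.40 ± 0.06). Sertoli cells had 523, 528 and 503 CPM with BPS, against 475, 467 and 439 CPM with vehicle (0.17 ± 0.03). The groups did not overlap in either cell type. Granulosa cells had 211, 199 and 204 CPM with BPS, against 191, 191 and 187 CPM with vehicle (0.11 ± 0.03). Directly exposed PGCLCs had 156, 174 and 164 CPM with BPS, against 153, 154 and 151 CPM with vehicle (0.11 ± 0.04). The lowest exposed PGCLC library stood just above the highest vehicle library.

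Sulf1 changed in opposite directions. It was lower in iPSCs, with 93.3, 89.1 and 92.7 CPM at 1 μM BPS, against 109, 107 and 106 CPM with vehicle (-0.23 ± 0.06). It was also lower in Sertoli cells, with 195, 187 and 197 CPM with BPS, against 214, 215 and 221 CPM with vehicle (-0.17 ± 0.03). These are the cell types in which vehicle Sulf1 was highest. It was higher in granulosa cells, with 27.3, 27.7 and 24.2 CPM with BPS, against 19.4, 19.4 and 17.5 CPM with vehicle (0.49 ± 0.06), and in directly exposed PGCLCs, with 94.0, 98.1 and 97.3 CPM with BPS, against 87.0, 88.1 and 88.0 CPM with vehicle (0.14 ± 0.03). Sulf1 thus had the largest granulosa difference of the 4 genes, and no gene of the table passed in all 4 cell types with 1 direction but Gsn, Lgals1 and Tubb6.

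These 4 comparisons chose the genes, so all 4 passed in each and no group overlapped, which is no finding. Of all genes tested, 8.54% passed in iPSCs, 26.6% in directly exposed PGCLCs, 5.24% in Sertoli cells and 2.6% in granulosa cells. The members just inside the threshold of 0.05 were Tubb6, whose highest adjusted p was 0.045 (granulosa), Gsn (0.042, granulosa), Lgals1 (0.0348, Sertoli) and Sulf1 (0.0158, iPSCs). Just outside were genes that passed in 3 of the 4. The nearest were Anxa5 (adjusted p 0.0512 in granulosa cells), which encodes a phospholipid-binding annexin, and Tcn2 (0.0518 in Sertoli cells), which encodes a vitamin B12 carrier. Next came Cemip (0.0575 in Sertoli cells), which encodes a hyaluronan-degrading protein. Clic1_2 (0.0632 in granulosa cells) followed, whose suffix marks a repeated symbol, here that of the chloride channel gene Clic1. After these came H2ac23 (0.0633 in iPSCs), which encodes a histone, and Anxa2 (0.0727 in PGCLCs), another annexin gene. The limit between these lists rested on single libraries: without replicate 1 or replicate 2 of the exposed Sertoli cells 0 of the 4 genes passed there, and without vehicle replicate 2 or vehicle replicate 3 of the Sertoli cells 2 passed. Without vehicle replicate 3, BPS replicate 1 or BPS replicate 2 of the granulosa cells 1 passed there, and without vehicle replicate 1 of the PGCLCs 2 passed. The directions of the 4 genes in these comparisons were the same under every alternative run.

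**Figure D2:**
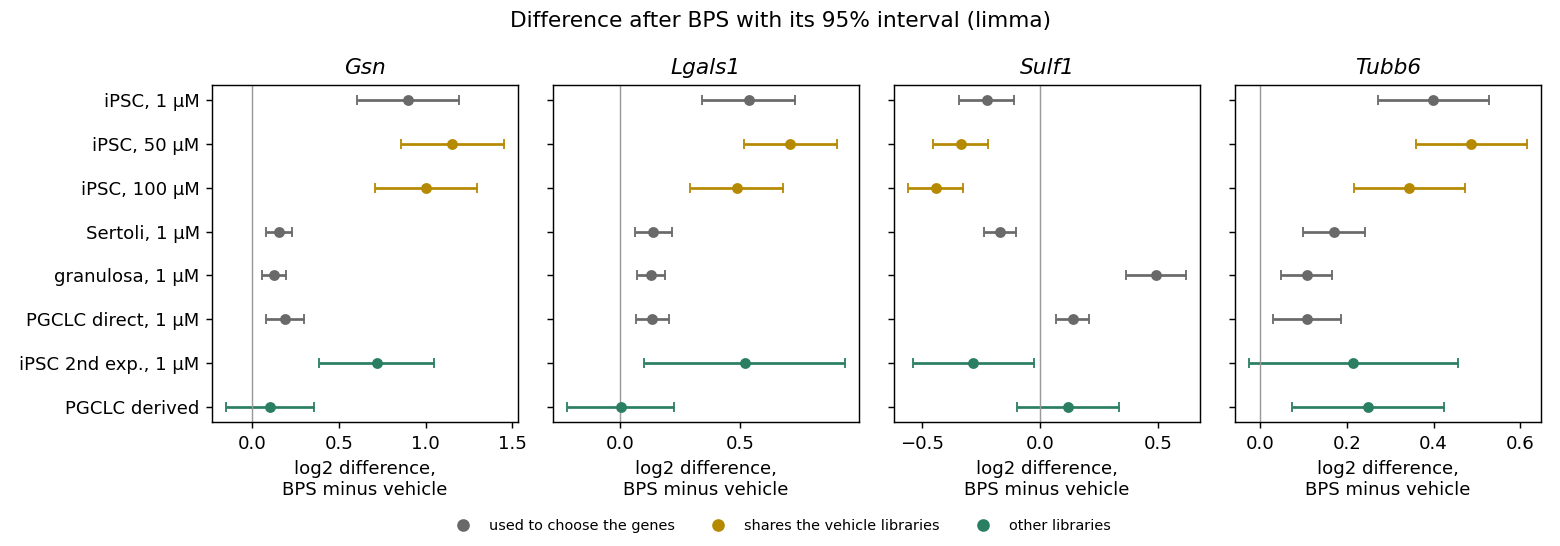
Log2 difference of each gene, BPS minus vehicle, with the 95% interval of limma, for each comparison with a vehicle group; the horizontal scale differs between genes. Grey marks the comparisons that chose the genes, ochre those that share their vehicle libraries, green libraries that did not enter the choice. Sulf1 lies left of 0 in iPSCs and Sertoli cells and right of 0 in granulosa cells (0.49) and PGCLCs (0.14).

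Markers of other cell states moved in some of the same comparisons, and their part in the changes of the 4 genes was not tested. In iPSCs the summed endoderm markers (3 genes, 1 of 2 tested higher) were 1.84 to 2.51 CPM with 1 μM BPS and 0.892 to 1.33 CPM with vehicle, and the germ cell markers (3 of 6 lower) 135 to 145 CPM and 169.8 to 174 CPM. The pluripotency markers (0 of 4 tested passed) overlapped, at 2835 to 3066 CPM with BPS and 2868 to 2927 CPM with vehicle. In directly exposed PGCLCs the mesoderm markers (4 of 4 higher) summed to 602 to 699 CPM with BPS and 447 to 468 CPM with vehicle, the endoderm markers (2 of 3 higher, Gata6 and Sox17) to 26.3 to 34.0 CPM and 24.0 to 26.0 CPM, the pluripotency markers (4 of 5 lower) to 1442 to 1614 CPM and 1778 to 1816 CPM, and the germ cell markers (4 of 6 lower) to 203 to 233 CPM and 248 to 254 CPM. In Sertoli cultures the stroma markers (1 of 6 tested lower) summed to 1055 to 1172 CPM with BPS and 1198 to 1317 CPM with vehicle, while the Sertoli markers (0 of 6 passed) overlapped, at 2702 to 2898 CPM and 2821 to 2897 CPM. In granulosa cultures the peritubular and smooth muscle markers (2 of 5 higher, among them Acta2) summed to 2374 to 2498 CPM with BPS and 2143 to 2203 CPM with vehicle, while the granulosa markers (0 of 5 passed) overlapped, at 1694 to 1796 CPM and 1615 to 1735 CPM. Other lists with calls included, in Sertoli cultures, the granulosa markers (2 of 3 tested lower) and the peritubular and smooth muscle markers (1 of 5 lower). In iPSCs the mesoderm markers (1 of 3 higher) were another. Further lists held calls too, and not all are named here. Lower were Star and Itgb3 in Sertoli cultures, Hsd3b1 and Itgb3 in granulosa cultures, Inha and Amhr2 in directly exposed PGCLCs and Zp3 in iPSCs. Higher were Col1a1 in directly exposed PGCLCs and Cd68 and Sycp3 in iPSCs. The oocyte and spermatogenic markers summed to at most 7.67 CPM in any Sertoli or granulosa library.

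At the higher doses the 4 genes kept the directions they had at 1 μM in iPSCs. Those comparisons share the vehicle libraries that chose the genes, so they too are a description. Gsn had 4.75, 5.30 and 6.94 CPM in vehicle, 9.85, 11.1 and 10.4 CPM at 1 μM, 9.87, 12.3 and 16.1 CPM at 50 μM and 11.7, 10.3 and 11.8 CPM at 100 μM. Lgals1 averaged 55.2 ± 3.73 CPM in vehicle, 80.6 ± 13.8 CPM at 1 μM, 90.5 ± 11.3 CPM at 50 μM and 77.2 ± 2.04 CPM at 100 μM (SD, n = 3 each). Both were highest at 50 μM, where replicate 3 stood above the other libraries. Tubb6 averaged 35.5 ± 1.89, 46.8 ± 1.51, 49.7 ± 2.55 and 45.1 ± 3.17 CPM from vehicle to 100 μM. Sulf1 averaged 107 ± 1.53, 91.7 ± 2.26, 85.2 ± 7.53 and 79.02 ± 1.73 CPM in the same order, and was the gene of the 4 whose mean was lower at each higher dose. The differences from vehicle at 50 and 100 μM were 1.15 and 1.00 for Gsn, 0.71 and 0.49 for Lgals1, -0.34 and -0.44 for Sulf1 and 0.49 and 0.34 for Tubb6. Against vehicle 26.4% of all genes passed at 50 μM and 30.7% at 100 μM.

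Libraries at 100 and 50 μM were compared by limma, and none of the 4 genes passed (0.055% of all genes did). Their means did not enter the choice, but their spread did, as the dose series was fitted together. For the same reason the spread in this test came partly from the libraries that chose the genes. The log2 difference, 100 μM minus 50 μM, was -0.15 for Gsn (95% interval -0.45 to 0.14, adjusted p = 0.782), -0.22 for Lgals1 (-0.42 to -0.03, adjusted p = 0.511), -0.10 for Sulf1 (-0.22 to 0.01, adjusted p = 0.595) and -0.14 for Tubb6 (-0.27 to -0.02, adjusted p = 0.519). Only Lgals1 did not overlap, with 75.3 to 79.4 CPM at 100 μM and 81.8 to 103 CPM at 50 μM. The share of all genes without overlap is not given here, so this gap is a description only. Without replicate 3 at 50 μM the Gsn difference was 0.03.

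The second iPSC experiment gave libraries that the choice had not used, at the same dose. There all 4 genes had the direction of the dose series, but none passed the test. Gsn had 7.10, 7.64 and 5.50 CPM in iPSCs with BPS, against 3.97, 4.35 and 3.86 CPM in iPSCs with vehicle, a log2 difference of 0.72 ± 0.14 (SE, limma adjusted p = 0.319, higher in 3 of 3 libraries). Lgals1 had 69.4, 109.8 and 67.6 CPM with BPS, against 56.3, 53.6 and 58.1 CPM with vehicle (0.52 ± 0.18, adjusted p = 0.410). For both genes every exposed library was above every vehicle library. Sulf1 had 80.4, 61.1 and 77.8 CPM with BPS, against 90.0, 90.6 and 84.4 CPM with vehicle (-0.28 ± 0.11, adjusted p = 0.431). Tubb6 had 38.3, 46.3 and 35.4 CPM with BPS, against 34.7, 34.2 and 33.7 CPM with vehicle (0.22 ± 0.10, adjusted p = 0.456). Neither overlapped, and in each of the 4 genes BPS replicate 2 was the library farthest from the vehicle. The shared directions and the gaps between groups are a description only. The share of all genes with such directions or gaps is not given here.

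Only 2 of 15572 genes passed in this experiment (0.0128%), with 1744 at an unadjusted p under 0.05, and limma-voom on whole reads recovered from the values called 0. The spread between the exposed libraries was wide for Lgals1 (SD 23.8 CPM, 29.0% of the mean), against 17.1% in the dose series at 1 μM. Without BPS replicate 2, Gsn (0.62 ± 0.13, limma adjusted p = 0.006005), Lgals1 (0.29 ± 0.04, 0.000324) and Sulf1 (-0.16 ± 0.04, 0.0178) passed, Tubb6 did not (0.11 ± 0.05, 0.199), and 1484 genes passed in all. That fit has 2 exposed libraries and was run for each library in turn. In a fit of all 42 libraries, which takes the spread from every group, all 4 passed. That spread includes the libraries that chose the genes, so this is no independent support. Far more genes passed in that fit as well, as given in the section on processing. The summed mesoderm markers were 30.7 to 33.1 CPM with BPS and 23.8 to 24.7 CPM with vehicle (0 of 2 tested passed), and the germ cell markers 166 to 179 CPM and 194 to 199 CPM (0 of 6 passed). Their part in the differences was not tested.

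**Figure D3:**
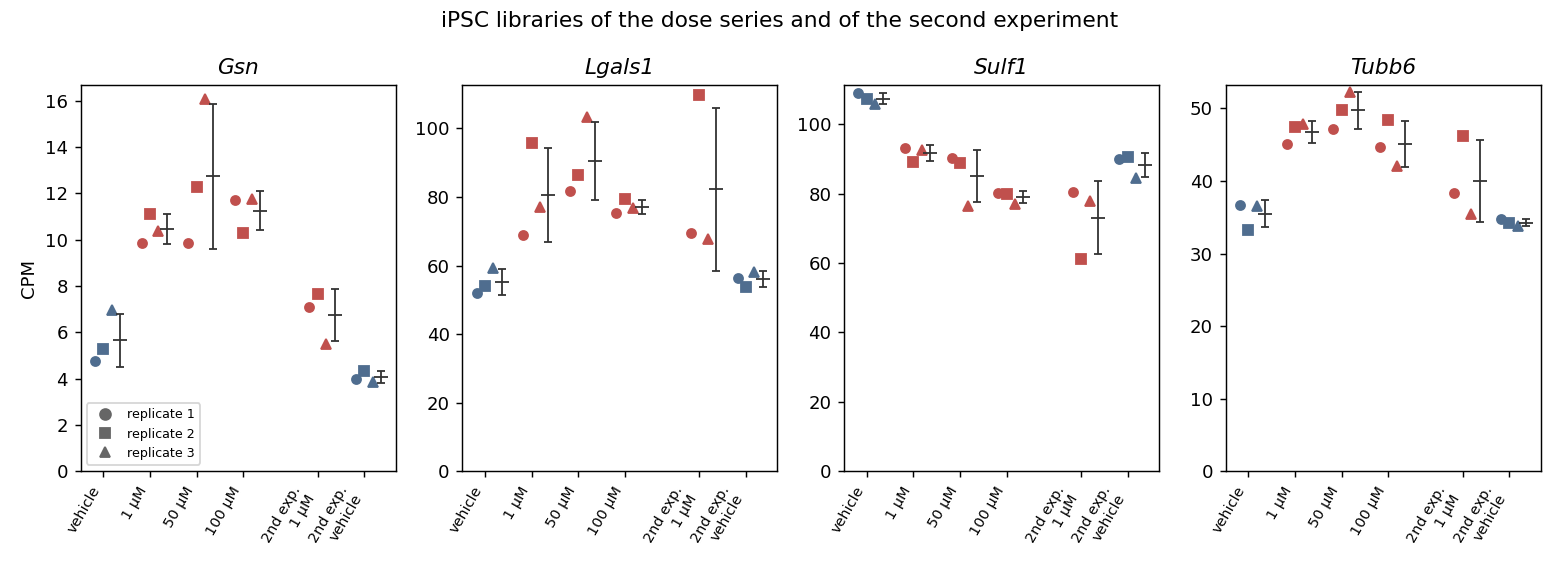
CPM of the 4 genes in the iPSC libraries, dose series (vehicle, 1, 50 and 100 μM) and second experiment (1 μM, vehicle), from 0 on each axis, with 1 symbol per replicate number and the mean ± SD beside each group. The exposed libraries of the second experiment are above vehicle for Gsn, Lgals1 and Tubb6 and below it for Sulf1, and replicate 2 (square) stands farthest (109.8 CPM for Lgals1).

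None of the 4 genes passed the test in PGCLCs derived from the exposed iPSCs. Gsn had 38.0, 37.9 and 31.8 CPM in PGCLCs derived from exposed iPSCs, against 31.5, 38.6 and 30.4 CPM in PGCLCs derived from vehicle iPSCs (0.10, 95% interval -0.15 to 0.35, limma adjusted p = 0.658). Lgals1 had 193, 196 and 177 CPM against 168, 221 and 179 CPM (0.00, -0.22 to 0.22, adjusted p = 0.995). The groups overlapped for both genes. Sulf1 had 129.9, 128 and 104 CPM against 104, 120.0 and 108 CPM (0.12, -0.10 to 0.33, adjusted p = 0.553). Tubb6 had 208, 214 and 186 CPM against 158, 188 and 167 CPM (0.25, 0.07 to 0.42, adjusted p = 0.225). For Tubb6 only the lowest library of PGCLCs from exposed iPSCs was below the highest library of PGCLCs from vehicle iPSCs.

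In this comparison 0 of 16268 genes passed in limma (0%), with 2578 at an unadjusted p under 0.05, and 0 passed in limma-voom. The intervals include differences as large as those in directly exposed PGCLCs, 0.11 to 0.19. Whether the response of derived PGCLCs differed from that of the iPSCs they came from was tested as an interaction in the 12 libraries of the experiment, and none of the 4 genes passed (0.0058% of genes did). The difference of the differences, derived PGCLCs minus iPSCs, was -0.61 ± 0.19 for Gsn (limma adjusted p = 0.365), -0.52 ± 0.22 for Lgals1 (0.423), 0.40 ± 0.15 for Sulf1 (0.405) and 0.03 ± 0.14 for Tubb6 (0.930). In the fit of all 42 libraries, Gsn (limma adjusted p = 0.0365) and Sulf1 (0.0287) did pass in the interaction, as did Tubb6 in derived PGCLCs (0.0336), so these calls depend on which libraries enter the fit. The spread in that fit came partly from the libraries that chose the genes, and far more genes passed in it. An equal response was not shown for any of the 4 genes.

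Between derived PGCLCs and the iPSCs they came from, Gsn, Lgals1 and Tubb6 had larger differences than in any BPS comparison. In vehicle, Gsn had 31.5, 38.6 and 30.4 CPM in derived PGCLCs, against 3.97, 4.35 and 3.86 CPM in iPSCs, a log2 difference of 3.03 ± 0.13 (limma adjusted p = 8.28e-10). Lgals1 had 168, 221 and 179 CPM against 56.3, 53.6 and 58.1 CPM (1.75 ± 0.15). Tubb6 had 158, 188 and 167 CPM against 34.7, 34.2 and 33.7 CPM (2.32 ± 0.10). All 3 rose with wide gaps between the groups. Markers of stroma (Col1a1, 8.17), mesoderm (Hand1, 12.58) and endoderm (Gata6, 6.24) rose in this comparison too, while the stroma marker Thy1 did not pass. The part of such cells in the rise of the 3 genes was not tested. Sulf1 had 104, 120.0 and 108 CPM in derived PGCLCs, against 90.0, 90.6 and 84.4 CPM in iPSCs, a smaller rise of 0.32 ± 0.11 (limma adjusted p = 0.0187), which did not pass without iPSC vehicle replicate 3 (0.29, adjusted p = 0.0652) or derived vehicle replicate 2 (0.27, adjusted p = 0.0758). All 4 genes passed here, as did 67.4% of all genes, 32.2% higher and 35.2% lower. In the vehicle libraries of the other experiments Sulf1 was instead lower in PGCLCs than in iPSCs, as given above (-0.29 ± 0.04).

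The relatives of each gene were listed with earlier results of these data known, and as those comparisons chose the 4 genes the counts are set beside the shares of all genes given above. Of the 6 other gelsolin family genes tested in iPSCs at 1 μM, Capg, which encodes an actin-capping protein, rose (0.40 ± 0.09, limma adjusted p = 0.00810) and none fell. Their median difference was 0.19, against -0.01 for all genes. At 50 μM 5 of 6 were higher (median 0.36), and at 100 μM 5 of 6 (median 0.32), both against the same vehicle libraries. In Sertoli and granulosa cells 0 of 6 passed (medians 0.02 and 0.03). In directly exposed PGCLCs Svil, which encodes the membrane-linked supervillin, rose (0.35 ± 0.05) and Vill fell by 0.29, with a median of -0.11.

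The 16 actin cytoskeleton genes driven by serum response factor and its cofactor MRTF had more higher than lower calls in each cell type, except in Sertoli cells after rescaling to the upper quartile, but so did all genes tested. Of all genes, 5.61% were higher and 2.94% lower in iPSCs, 15.4% and 11.3% in directly exposed PGCLCs, 3.76% and 1.48% in Sertoli cells, and 1.95% and 0.656% in granulosa cells. In iPSCs at 1 μM 4 of 11 tested were higher and 0 lower, with a median of 0.18, among them Zyx (0.51 ± 0.12), which encodes the focal adhesion protein zyxin, and Cnn2 (0.36 ± 0.08), which encodes a calponin. In granulosa cells 8 of 16 were higher and 0 lower (median 0.10, all genes 0.02), with Cnn2 at 0.21 ± 0.03 and Zyx at 0.13 ± 0.02. In this culture the smooth muscle markers, of which Acta2 and Cnn1 are also on this list, moved too, as given above. Rescaled to the upper quartile or by median ratios, 6 of 16 were higher in granulosa cells. In Sertoli cells 3 of 16 were higher and 0 lower, with a median of 0.01, but after rescaling to the upper quartile 0 were higher and 1 was lower. In directly exposed PGCLCs 4 were higher and 2 lower, with a median of 0.01. In the second experiment 0 of 11 passed in iPSCs and 0 of 16 in derived PGCLCs.

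The other galectins had calls in both directions. In iPSCs at 1 μM 0 of the 7 others tested were higher and 1 was lower, Lgals7 (-0.77 ± 0.15, limma adjusted p = 0.00286). Their median was -0.14. At 50 and 100 μM Lgals3, which encodes galectin-3, was higher (0.59 and 0.50), and Lgals7 was lower (-0.86 and -1.15). Lgals9 was lower at 100 μM (-0.41), and these comparisons share the same vehicle libraries. In Sertoli cells Lgals3 rose (0.20 ± 0.04, limma adjusted p = 0.0160), and in granulosa cells 0 of 6 passed. Of the 5 tested in directly exposed PGCLCs, Lgals9 (-0.51 ± 0.14) and Lgals8 (-0.23 ± 0.08) fell, and Lgals3bp, which encodes a galectin-binding glycoprotein and was listed with the galectins, rose (0.34 ± 0.10). In the derivation of PGCLCs without BPS Lgals3bp rose by 2.98 and Lgals7 fell by 2.88, beside the rise of Lgals1.

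The other beta tubulins had calls in both directions. In iPSCs at 1 μM 0 of 6 were higher and Tubb3, the isotype known from neurons, fell by 0.29 (limma adjusted p = 0.00368), with a median of -0.01 for the 6. In granulosa cells Tubb2a (0.18 ± 0.03) and Tubb3 (0.20 ± 0.04) rose, with a median of 0.10, close to the 0.11 of Tubb6, and in Sertoli cells Tubb4b rose (0.14 ± 0.03), with a median of 0.09. Tubb2a (-0.19 ± 0.06) and Tubb2b (-0.27 ± 0.04) fell in directly exposed PGCLCs. In the derivation of PGCLCs without BPS 5 of the 6 other beta tubulins fell, by 2.35 for Tubb2b, 2.16 for Tubb3 and 1.88 for Tubb2a, while Tubb6 rose. Of the alpha tubulins, which pair with beta tubulins, 0 of 4 passed in iPSCs at 1 μM, 2 of 4 were higher in Sertoli cells and 3 of 5 in granulosa cells (1 of 4 and 1 of 5 after rescaling to the upper quartile). PGCLCs exposed directly had 1 of 5 lower.

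Sulf2, which encodes the second sulfatase of the same kind, did not pass in any of the 4 cell types. Its differences were -0.10 ± 0.06 in iPSCs, 0.03 ± 0.03 in directly exposed PGCLCs, -0.02 ± 0.04 in Sertoli cells and -0.02 ± 0.03 in granulosa cells. It is 1 of 12 other genes listed for heparan sulfate synthesis and editing, of which 0 passed in Sertoli cells and 0 in granulosa cells (2 were lower in granulosa cells after either rescaling). In iPSCs at 1 μM only Hs3st1, a sulfotransferase gene at 0.294 CPM in vehicle, passed among 11 (1.06 ± 0.27). In directly exposed PGCLCs 4 of 12 were higher and 1 was lower, Hs6st1 (-0.36 ± 0.04), which encodes an enzyme that adds the 6-O-sulfate, while Hs6st2, of the same activity, rose (0.26 ± 0.09). Of 11 core proteins that carry heparan sulfate, 2 were higher and 2 lower in iPSCs, among them the syndecan gene Sdc3 (0.73 ± 0.12), 5 were higher and 1 lower in directly exposed PGCLCs, 1 was lower in Sertoli cells and 0 passed in granulosa cells.

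**Figure D4:**
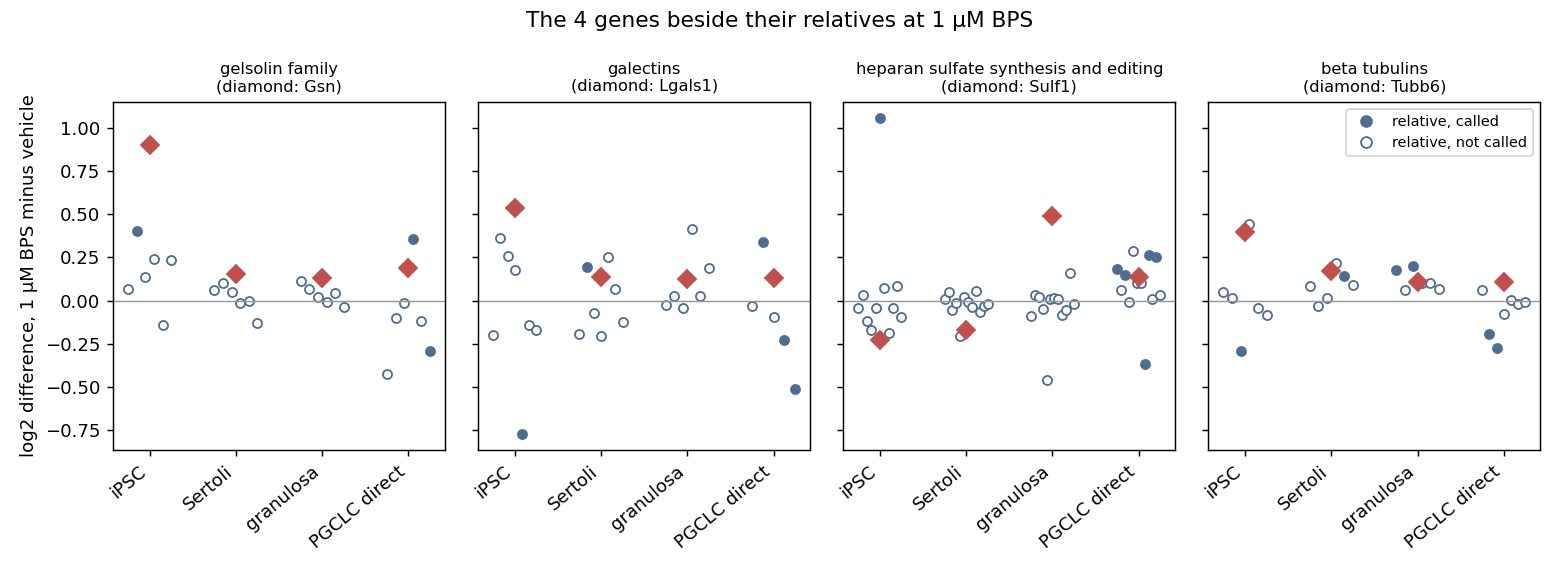
Log2 difference at 1 μM BPS, BPS minus vehicle, of each gene (red diamond) and of its relatives (blue circles, filled where they passed the test) in the 4 cell types. The diamonds of Gsn and Lgals1 lie above their relatives in iPSCs (0.90 and 0.53), and that of Sulf1 lies above its relatives in granulosa cells (0.49). The 4 genes were chosen by these comparisons and their relatives were not, so these positions are no finding.

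Across the 14 group means of log2 CPM, Gsn, Lgals1 and Tubb6 ran alike and Sulf1 did not. Pearson's r was 0.951 between Gsn and Lgals1, 0.929 between Gsn and Tubb6 and 0.890 between Lgals1 and Tubb6, and -0.146, -0.011 and 0.161 between Sulf1 and Gsn, Lgals1 and Tubb6. These values describe 14 points that mostly reflect cell type, and many other genes were more alike. Among 19591 genes, Lgals1 ranked 917 and Tubb6 1571 in likeness to Gsn. In likeness to Lgals1, Gsn ranked 1314 and Tubb6 3040, and in likeness to Tubb6, Gsn ranked 882 and Lgals1 1689. Among 19591 genes, those most like Gsn were Timp3 (r = 0.996), an inhibitor of matrix proteases, Anxa3 (0.995) and Samd4 (0.994). Those most like Lgals1 were Wt1, the gonadal transcription factor gene (0.996), Rdh14 and Ndfip1 (0.996 each). Those most like Tubb6 were Plekho1 (0.996), Serinc5 (0.995) and Gmip (0.995), and those most like Sulf1 were Rhpn2 (0.989), Cul4b (0.984) and the collagen gene Col18a1 (0.978). Over the 42 libraries the same 3 genes led for Sulf1, and the same first 2 for Gsn and Tubb6.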

How the data were processed

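RNA was extracted with Trizol, and poly(A)-selected, strand-specific libraries were sequenced paired-end. The authors aligned the reads with Rsubread to mm10 (GRCm38) and scaled them by TMM in edgeR, and FastQC is also named. Gene annotation, strand setting and filters of the counts were not given in the sources used here. What was deposited is log2 CPM for 22186 genes and 42 libraries, to which the authors had added 0.0313 CPM, so that a gene without reads is listed at -5.00. Whole reads were recovered from the steps between values (at least 99.89% of values lay within 0.05 of a whole number). They gave the depth, and no pair of replicates was the same library. A suffix marked 1222 symbols that occur more than once.

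Differences were tested on the deposited log2 values with limma 3.58.1 (variance trend, R 4.3.3), two-sided, on genes with at least 0.5 CPM in at least 3 libraries of the fit, with Benjamini-Hochberg adjustment over all of them and a threshold of 0.05. A difference understates the change of very low genes. The dose series (12 libraries) and the 4 vehicle groups (12) were each fitted together. Each other pair of BPS and vehicle groups was fitted alone (6 libraries), in the second experiment too, where only the interaction and the comparison of derived PGCLCs with iPSCs came from a fit of its 12 libraries. The authors' methods name edgeR on counts. The paper reports fewer changed genes at 1 μM in Sertoli cells, granulosa cells and directly exposed PGCLCs than were called here. In the second experiment it reports more, both in iPSCs and in derived PGCLCs. As the deposited unit is log2 CPM, limma-voom on these whole reads was the count-based alternative. The script was tested on simulated data. The other alternatives were other added CPM, filters, scalings, a replicate block, other sets of libraries and leaving out each library.

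The 4 genes, the gene families, markers and motifs were chosen with earlier results of these data known. The relatives named are up to 3 of each list by smallest adjusted p, and those that passed in a cell type at 1 μM were named after their values were seen, as were Sulf2 and the marker genes given with values. The genes most like a member are the 3 with the highest Pearson's r over group means. Figures were drawn with matplotlib 3.10.9.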

Additional observations from a re-analysis of the deposited data

Results flagged for a closer look

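The difference of Sulf1 after 1 μM BPS had opposite signs in pairs of cell types, with every exposed library below every vehicle library in one and above it in the other. Because these comparisons chose the gene, the difference between cell types was not tested. Subtracting the granulosa difference (0.49) left -0.72 for the dose series iPSCs (-0.23) and -0.66 for Sertoli cells (-0.17). Subtracting the difference of directly exposed PGCLCs (0.14) left -0.36 for the dose series iPSCs and -0.31 for Sertoli cells. Against the iPSCs of the second experiment (-0.28), the granulosa difference was larger by 0.77 and that of directly exposed PGCLCs by 0.42.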

How the results depend on the processing

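That all 4 genes passed at 1 μM depended on the settings. The number of genes that passed in all 4 cell types was 4. It became 6 with a filter of at least 5 CPM and 6 in limma-voom (all 4 genes among them in both), 6 with a replicate block (3 among them), 4 by median ratios (2 among them, Lgals1 and Sulf1), 3 with 4 CPM added (all but Lgals1), 2 with no filter (Lgals1 and Sulf1), 2 after rescaling to the upper quartile (Sulf1 and Cemip), 0 in a fit of all 42 libraries and 0 with the second experiment as the iPSC experiment. Of the 4 genes, 2 passed in granulosa cells with no filter, after rescaling to the upper quartile and by median ratios. The fit of all 42 libraries called 0 in Sertoli cells, 0 in directly exposed PGCLCs and 1 in granulosa cells, but 4 in the iPSCs of the second experiment, 1 in derived PGCLCs (Tubb6) and 2 in the interaction. Leaving out 1 library gave 0 to 4 in Sertoli cells, 2 to 4 in directly exposed PGCLCs, 1 to 4 in granulosa cells and 0 to 3 in the second iPSC experiment. The causes were not tested. Over all genes, the 42-library fit called 207 in Sertoli cells (820 in the separate fit), 1619 in directly exposed PGCLCs (4354), 38 in granulosa cells (409), 2046 in the second iPSC experiment (2), 721 in derived PGCLCs (0) and 888 in the interaction (1). A fit of only the libraries compared called 723 in iPSCs at 1 μM (1397) and 43 between 100 and 50 μM (9). The share of higher calls fell to 43.7% after rescaling to the upper quartile in Sertoli cells (71.7% as deposited), 41.1% in directly exposed PGCLCs (57.7%) and 49.4% in granulosa cells (74.8%). Between vehicle groups this rescaling moved the median of all genes to at most -0.30, in Sertoli minus PGCLC (-0.10 as deposited).

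Signs turned only for small differences. The Gsn difference, 100 minus 50 μM, was 0.0295 without replicate 3 at 50 μM and ranged from -0.3211 to 0.0295 over the libraries left out. Lgals1 in derived PGCLCs was -0.0084 after rescaling to the upper quartile, -0.0058 by median ratios and -0.0781 to 0.1171 without single libraries. The interaction of Tubb6 was -0.0498 to 0.1426 without single libraries. Gsn in Sertoli minus granulosa cells was -0.0337 after rescaling to the upper quartile and -0.0001 to 0.0640 without single libraries.

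Replicate numbers were not used as pairs in the main fits. The correlations of same-numbered deviations in the dose series were -0.111, 0.009 and -0.009 at 1 μM, and 0.142, 0.004 and 0.151 at 50 μM. They were -0.401, -0.064 and -0.216 in directly exposed PGCLCs, and -0.372, 0.183 and 0.116 in derived PGCLCs. With a replicate block 4 of the 4 genes passed in iPSCs, 4 in Sertoli cells, 4 in directly exposed PGCLCs, 3 in granulosa cells and 0 in the second iPSC experiment and in derived PGCLCs, and over all genes 1298 passed in Sertoli cells against 820 without it.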
